A study of Mus musculus with 13 samples.

Results

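The genes described here encode the invariant chains of the T cell receptor complex, its coreceptors and 3 partners: Cd3d, Cd3e, Cd3g, Cd247, Cd8a, Cd8b1, Cd4, Lck, Cd28 and Foxp3. They are 10 of the 22048 genes in a table of read counts from whole mouse liver, and all 10 were present under the Ensembl identifiers of these symbols. They were chosen because their levels in livers depleted of hepatic stellate cells, in control livers and in livers after hepatectomy were already known, so their values in those 3 groups are a description and support nothing further. The table covers 13 libraries. Of these, 6 were control livers, which were not depleted of stellate cells (3 male, 3 female). A further 4 livers were depleted of hepatic stellate cells (1 male, 3 female). The last 3 livers were not depleted and were taken 72 h after partial hepatectomy, an operation that takes out some of the liver and lets the rest regrow (2 male, 1 female). The labels give no strain, age, method or time of depletion, or operation for the controls, and do not state that each library came from a separate mouse. P-values therefore measure the spread between these libraries.

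T cells recognise antigen through a clonal receptor that has no signalling tail of its own. The receptor pairs with the CD3 delta, epsilon and gamma chains and the zeta chain (gene Cd247), whose tails are phosphorylated by the kinase Lck. CD4 and CD8 bind class II and class I major histocompatibility molecules and carry Lck to the receptor, CD28 gives the costimulatory signal, and Foxp3 is the lineage factor of regulatory T cells. A healthy liver holds resident and circulating T cells in its sinusoids, among them many CD8-bearing cells.

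The upstream sequences show what stood in front of the genes that were high together in the depleted livers. RefSeq gave windows of 250 bases immediately before an annotated start (GRCm38.p6) for 7 of the 10 genes. Cd8b1, Cd4 and Cd28 were not matched. Across the 9 windows of those 7 genes, the letters AGGAAG (or CTTCCT on the other strand), 1 form of an ETS site, occurred in 6. The share over 32851 windows of the same length was 29.5%. Lck and Foxp3 had more than 1 window each, and other forms of the site were not searched. The core letters of a RUNX site (TGTGGT, or ACCACA on the other strand) occurred in 1 of 9, a Lck window, against 14.0% of all windows. The letters TATAAA, searched on both strands, occurred in 1 of 9, a Foxp3 window, against 12.4% of all windows. In these windows no match overlapped another. Cd3g and Cd3d lie head to head, with starts 1355 bases apart, and their windows are shown with those of Cd247, Cd8a and Lck, each read 5′ to 3′ on the gene's own strand with ETS and RUNX letters in capitals.
Cd3g (chr9:44980432-44980681, minus strand): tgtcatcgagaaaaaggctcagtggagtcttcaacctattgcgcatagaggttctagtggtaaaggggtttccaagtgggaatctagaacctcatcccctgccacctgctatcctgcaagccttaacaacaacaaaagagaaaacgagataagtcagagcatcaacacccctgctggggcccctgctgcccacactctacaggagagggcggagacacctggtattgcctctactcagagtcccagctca
Cd3d (chr9:44981536-44981785, plus strand): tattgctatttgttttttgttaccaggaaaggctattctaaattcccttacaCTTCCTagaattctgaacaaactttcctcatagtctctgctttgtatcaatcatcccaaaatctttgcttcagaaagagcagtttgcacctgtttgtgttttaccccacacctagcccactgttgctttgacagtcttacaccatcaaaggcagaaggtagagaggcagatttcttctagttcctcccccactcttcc
Cd247 (chr1:165788431-165788680, plus strand): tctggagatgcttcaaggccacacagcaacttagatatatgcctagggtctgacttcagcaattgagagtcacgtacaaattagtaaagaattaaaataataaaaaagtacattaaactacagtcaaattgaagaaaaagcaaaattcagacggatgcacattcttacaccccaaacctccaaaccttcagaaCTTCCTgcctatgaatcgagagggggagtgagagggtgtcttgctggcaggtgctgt
Cd8a (chr6:71373177-71373426, plus strand): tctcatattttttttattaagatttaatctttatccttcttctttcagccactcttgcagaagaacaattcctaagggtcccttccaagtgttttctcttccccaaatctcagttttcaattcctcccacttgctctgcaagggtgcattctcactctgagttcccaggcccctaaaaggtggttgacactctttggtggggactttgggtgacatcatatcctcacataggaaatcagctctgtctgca
Lck (chr4:129573642-129573891, minus strand): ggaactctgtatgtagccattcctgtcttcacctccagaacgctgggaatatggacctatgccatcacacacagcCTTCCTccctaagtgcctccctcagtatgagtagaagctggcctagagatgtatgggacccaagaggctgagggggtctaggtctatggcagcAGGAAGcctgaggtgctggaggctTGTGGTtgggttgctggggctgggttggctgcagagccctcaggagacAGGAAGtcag
The Lck window held 3 ETS matches and the only RUNX match, and the Cd3d and Cd247 windows held 1 ETS match each. Neither set of letters was found in the Cd3g or Cd8a window.

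Library totals ran from 35360991 to 51008737 counts. At this depth, 3 counts correspond to between 0.0524 and 0.09 CPM (counts scaled to the library, with TMM factors), which is taken as the floor. Markers of stellate cells passed the test as lower in the depleted livers for 8 of 8 genes, with summed levels of 5.01 to 19.3 CPM against 89.8 to 315 CPM in controls. Several libraries stood apart. Control replicate 6 had the lowest Ptprc (the pan-leukocyte gene CD45) of its group, at 2.94 CPM against 9.40 to 16.4 CPM in the other controls. Hepatectomy replicate 2 had 3.76 CPM against 10.6 and 12 CPM in the other hepatectomised livers. Depleted replicate 4 had the highest summed stellate markers of its group, 19.3 CPM against 5.01 to 6.92 CPM.

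All 4 signalling chains were abundant in the depleted livers and scarce elsewhere. Cd3d, on chromosome 9 (GRCm38, 44981786 to 44987339), read 3.77, 3.56, 7.96 and 9.82 CPM in depleted replicates 1 to 4. In the 6 controls its lowest, median and highest levels were 0.03, 0.128 and 0.374 CPM, and in the hepatectomised livers it read 0.294, 0.0281 and 0.274 CPM. Every depleted liver was above every other liver, while the control and hepatectomised ranges overlapped. The fitted log2 fold change of Cd3d against control was 5.10 ± 0.59 (SE) in depleted livers and 0.26 ± 0.73 after hepatectomy.

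Cd3e, the chain without which the complex does not assemble, lies 27841 bases from Cd3d by their starts (chromosome 9, 44998740 to 45009627). It read 4.95, 5.26, 11 and 14.6 CPM in the depleted livers. In controls Cd3e ran from 0.173 to 0.702 CPM around a median of 0.266 CPM, and in the hepatectomised livers it read 0.147, 0.0561 and 0.449 CPM. The depleted livers again stood clear of both other groups, with a log2 fold change of 4.63 ± 0.51 against control, and the other groups overlapped (-0.62 ± 0.64 after hepatectomy). For Cd3e the first value was 4.0 without depleted replicate 3, and the second was -1.56 without hepatectomy replicate 3. Cd3g (chromosome 9, 44969572 to 44980431) was the chain with the highest level, at 6.30, 5.67, 12.7 and 17.4 CPM in the depleted livers. Its control levels were 0.321, 0.454 and 0.685 CPM (lowest, median, highest), and its levels after hepatectomy were 0.294, 0.281 and 0.549 CPM. No depleted liver overlapped another group, the log2 fold change being 4.38 ± 0.37, and the hepatectomised livers lay within or just under the control range (-0.35 ± 0.44).

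Cd247, the zeta chain (chromosome 1, 165788681 to 165877277), read 3.66, 4.21, 8.87 and 7.86 CPM in the depleted livers. Controls ran from 0.0494 to 0.425 CPM with a median of 0.217 CPM, and the hepatectomised livers read 0.118, 0.0561 and 0.399 CPM. Groups separated as for the CD3 chains, at 4.74 ± 0.51 in depleted livers and -0.19 ± 0.62 after hepatectomy on the log2 scale. These values of Cd247 were 3.91 without depleted replicate 3 and -1.24 without hepatectomy replicate 3. The span of Cd247 overlaps that of Pou2f1 in the annotation, and how the counting assigned any shared reads is not given in the sources used here.

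The CD8 coreceptor genes had the largest fold changes of the 10 in depleted against control livers. Cd8a, the alpha chain (chromosome 6, 71373427 to 71379173), read 11.4, 8.20, 18.0 and 17.2 CPM in the depleted livers. In controls its lowest, median and highest levels were 0.0536, 0.157 and 0.247 CPM, the lowest resting on 2 counts, and after hepatectomy it read 0.294, 0.168 and 0.224 CPM. The gap between the lowest depleted and the highest other liver was therefore wide, and the log2 fold change was 6.36 ± 0.37 (81.9-fold) against control and 0.48 ± 0.45 after hepatectomy. Cd8b1, the beta chain that marks CD8 alpha-beta heterodimers of conventional cytotoxic T cells (chromosome 6, 71322788 to 71337494, 35932 bases from Cd8a), read 5.46, 3.02, 11.8 and 11.1 CPM in the depleted livers. Its 6 controls held 2, 8, 2, 5, 3 and 2 counts, and its 3 hepatectomised livers held 1, 2 and 4 counts, so most of these libraries sat at or under the floor. Summed counts were 1568 in depleted and 22 in control livers, a ratio of rates of 88.7 with an exact (Clopper-Pearson) 95% interval of 58.4 to 142, which covers counting error only. Against the 7 counts of the hepatectomised livers the ratio was 127 (61.5 to 317). Between hepatectomised and control livers the ratio of rates was 0.698 (0.252 to 1.69), an interval that spans 1. Among all 13831 genes tested in depleted against control livers, Cd8b1 ranked 51 and Cd8a 55 by log2 fold change.

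Cd4 had the highest mean level in CPM of the 10 genes in controls. It lies on chromosome 6 (124864692 to 124888221) and encodes the coreceptor of helper and regulatory T cells. Depleted livers read 4.73, 5.55, 8.80 and 9.71 CPM, controls ran from 1.12 to 2.34 CPM around 1.74 CPM, and the hepatectomised livers read 3.85, 3.28 and 0.648 CPM. The depleted livers were the highest, but by less than for Cd8a: the log2 fold change was 2.38 ± 0.32 (5.19-fold). After hepatectomy the 2 male livers exceeded every control and the female liver was below every control, with a fitted change of 0.27 ± 0.36.

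Lck (chromosome 4, 129548344 to 129573641), the kinase that phosphorylates the CD3 and zeta tails, read 6.92, 8.04, 15.8 and 17.8 CPM in the depleted livers. Controls ran from 0.346 to 1.61 CPM with a median of 0.632 CPM, and the hepatectomised livers read 0.265, 0.281 and 0.723 CPM. Depleted livers lay apart from the rest at a log2 fold change of 3.93 ± 0.42, whereas the hepatectomised livers reached into the control range (-0.78 ± 0.51). Without depleted replicate 3 the first value was 3.18.

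Cd28, the costimulatory receptor for CD80 and CD86 (chromosome 1, 60716800 to 60773359), was the 1 gene whose hepatectomised livers all lay above the controls. The hepatectomised livers read 1.73, 1.26 and 0.599 CPM, and the depleted livers read 2.59, 4.28, 6.92 and 3.43 CPM. In controls Cd28 ran from 0 to 0.398 CPM with a median of 0.311 CPM, control replicate 1 having 0 counts. The 3 groups did not overlap, in the order control, hepatectomised, depleted, where 7.41% of all genes tested had every hepatectomised liver above every control. The log2 fold change was 4.18 ± 0.61 in depleted livers and 2.12 ± 0.67 after hepatectomy, and it was 2.06 ± 0.74 in depleted against hepatectomised livers. Without control replicate 1 the hepatectomy value was 1.74.

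Foxp3 (chromosome X, 7573644 to 7595245) was the scarcest of the 10 in the depleted livers and the one gene whose depleted and control ranges overlapped. Depleted replicates 1 to 4 read 0.343, 0.246, 0.489 and 1.29 CPM, from 16, 11, 28 and 58 counts. Controls ran from 0.0899 to 0.375 CPM with a median of 0.155 CPM, the highest being control replicate 1, and the hepatectomised livers read 0.0882, 0.14 and 0.2 CPM. The log2 fold change was 1.66 ± 0.57 in depleted livers against control, 1.02 without depleted replicate 4 and 0.88 without that library, control replicate 6 and hepatectomy replicate 2. The span of Foxp3 overlaps that of Ccdc22 on the other strand, and the strand setting of the counting is not given in the sources used here.

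**Figure D1:**
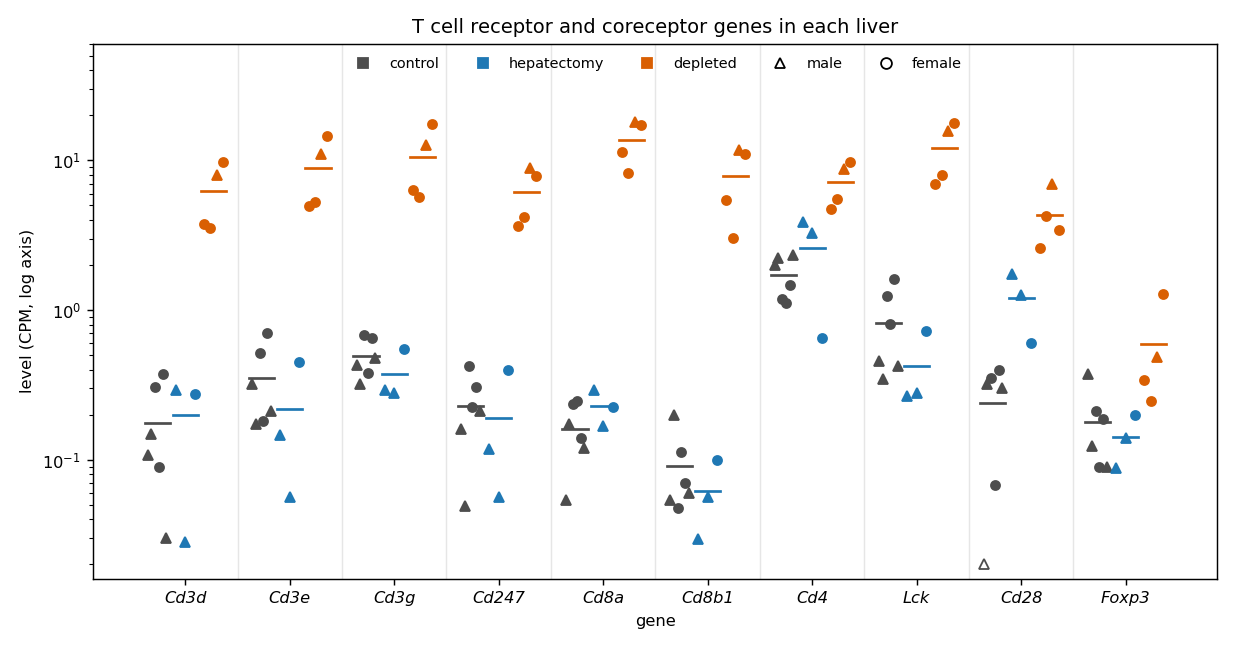
Level of each of the 10 genes in every liver, in CPM on a log axis, with groups by colour, sex by symbol and group means as bars; the open symbol at the bottom of the Cd28 column is control replicate 1, which had 0 counts. Depleted livers lie above all controls for every gene except Foxp3, where depleted replicates 1 and 2 (0.343 and 0.246 CPM) fall within the control range.

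In depleted against control livers all 10 genes passed the threshold of the fit across all genes (edgeR's quasi-likelihood test, Benjamini-Hochberg adjusted p under 0.05) as higher, where 18.9% of all genes tested did. Ranges did not overlap for 9 of the 10, against 16.5% of all genes tested with every depleted liver above every control. The median log2 fold change of the 10 was 4.5, and that of all genes tested was -0.03. The 10 were chosen on this contrast, so nothing is read from these counts. Cd8a, Cd8b1 and Foxp3 passed the low-count filter only through the depleted livers, and the other 7 would have passed without them. The Foxp3 call was not stable: 9 of 20 alternative settings kept it past the threshold, and it was lost without any one of control replicates 2 to 6 or of depleted replicates 3 and 4, with log2 fold changes of 1.59, 1.72, 1.45, 1.66, 1.57, 1.76 and 1.02 in that order. The other 9 genes passed under all 21 alternatives run.

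In hepatectomised against control livers 0 of the 10 passed with edgeR, where 8.42% of all genes tested did. At an unadjusted p under 0.05 the count was 1, and DESeq2 and limma-voom each called 1, in every case Cd28 as higher. Cd28 passed in 3 of 19 alternatives, which were those 2 tools and the fit without a sex term. Point estimates were positive for 4 genes and negative for 6, with a median of -0.25 on the log2 scale. In depleted against hepatectomised livers 8 of 10 passed as higher with edgeR, where 13.3% of all genes tested did. The exceptions were Cd28 and Foxp3. DESeq2 and limma-voom each called 9, Cd28 included, and all 10 had an unadjusted p under 0.05 with edgeR. In this contrast ranges were apart for all 10, against 18.1% of all genes tested. Single libraries moved several of these log2 fold changes. Leaving out hepatectomy replicate 3 moved Cd3e from 5.25 to 6.18, Cd247 from 4.93 to 5.95, Cd8b1 from 7.01 to 7.86 and Cd4 from 2.11 to 1.48. Leaving out depleted replicate 3 moved Cd3d from 4.84 to 4.12, Cd3e to 4.6, Cd247 to 4.04 and Lck from 4.71 to 3.83, and leaving out depleted replicate 4 moved Foxp3 from 1.97 to 1.34. These 3 comparisons share libraries, so their values are not independent of each other.

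**Figure D2:**
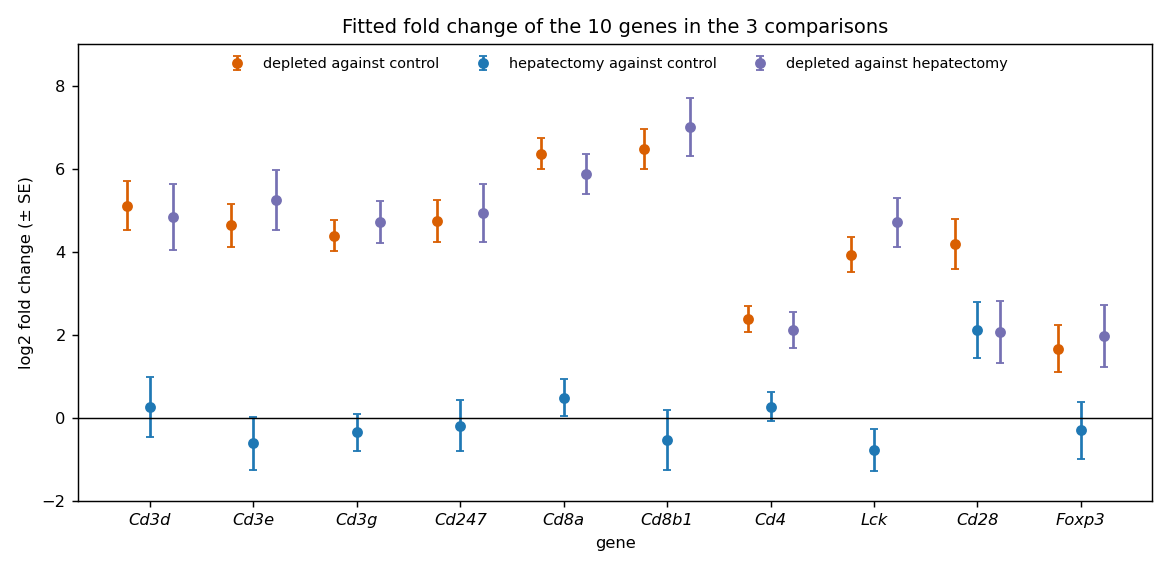
Fitted log2 fold change of each gene (points, bars ± SE) in the 3 comparisons. In depleted against control livers the values run from 1.66 (Foxp3) to 6.47 (Cd8b1), while after hepatectomy Cd28 (2.12) stands clear of the others, which lie between -0.78 and 0.48.

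In whole tissue, more T cells and more RNA per T cell cannot be told apart, nor fewer cells and less RNA, and all levels here are relative to the RNA of the whole liver. Scaled per kilobase of gene length, the order of mean levels in the depleted livers was Cd3g (9.83 CPM per kb), Cd3e (6.23), Cd8b1 (5.55), Cd3d (4.75), Cd8a (4.38), Lck (4.14), Cd4 (1.79), Cd247 (1.15), Cd28 (0.703) and Foxp3 (0.149). Neighbours in that order overlapped between livers except Cd28 and Foxp3. Within every depleted liver, however, Cd3g exceeded Cd3e, Lck exceeded Cd4, Cd4 exceeded Cd247 and Cd247 exceeded Cd28. The order among Cd3e, Cd8b1, Cd3d, Cd8a and Lck varied from liver to liver. In controls, Cd3g (0.46 CPM per kb) and Cd4 (0.428) led, and every pair of neighbours overlapped between livers, though Cd3e exceeded Cd3d within each control. Cd4 led after hepatectomy at 0.643 CPM per kb, ahead of Cd3g (0.35) and Cd28 (0.196), again with every pair of neighbours overlapping between livers. Within each hepatectomised liver Cd8a exceeded its neighbour Cd8b1, on few counts of both. In CPM, depleted replicates 3 and 4 were the highest livers of their group for 9 of the 10 genes, the exception being Cd28, for which replicates 3 and 2 were highest. The highest depleted liver exceeded the lowest by 2.05-fold (Cd4) to 5.24-fold (Foxp3).

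Ratios between genes within a liver do not depend on its library size. In the depleted livers Cd3d to Cd3e per length lay between 0.73 and 0.827, Cd3g to Cd3e between 1.44 and 1.71, Cd247 to Cd3e between 0.145 and 0.218, and Lck to Cd3e between 0.596 and 0.749. These ratios spread more widely in controls, where Cd3d to Cd3e ran from 0.155 to 0.93, on 1 to 16 counts of Cd3d, and Cd247 to Cd3e from 0.077 to 0.337. The ratio between the coreceptor genes differed between groups, although outside the depleted livers it rested on 2 to 11 counts of Cd8a. Which cells the Cd4 RNA came from was not tested. Cd8a to Cd4 was 3.10, 1.90, 2.64 and 2.29 in the depleted livers, and it ran from 0.0344 to 0.283 in controls and was 0.0983, 0.0661 and 0.446 after hepatectomy. Cd8a thus exceeded Cd4 per length in every depleted liver and in no other liver. Cd8b1 to Cd8a was 1.06, 0.814, 1.45 and 1.43 in the depleted livers.

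Relative to Cd3e, Foxp3 and Cd4 were lower in the depleted livers than in any other liver. Foxp3 to Cd3e was 0.0249, 0.0169, 0.0161 and 0.0318 there, against 0.096 to 0.42 in controls and 0.216, 0.9 and 0.16 after hepatectomy. Foxp3 relative to Cd4 did not separate the groups, at 0.0448 to 0.134 in depleted and 0.0389 to 0.189 in control livers. Cd4 to Cd3e was 0.237 to 0.376 in depleted livers, 0.748 to 4.58 in controls, and 9.33, 20.8 and 0.514 after hepatectomy. The values of 9.33 and 20.8 belong to the 2 male hepatectomised livers and rest on 5 and 2 counts of Cd3e. Cd28 to Cd3e was 2.77 and 5.28 in those livers and 0.313 in the female one, against 0 to 0.436 in controls and 0.0551 to 0.191 in depleted livers.

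**Figure D3:**
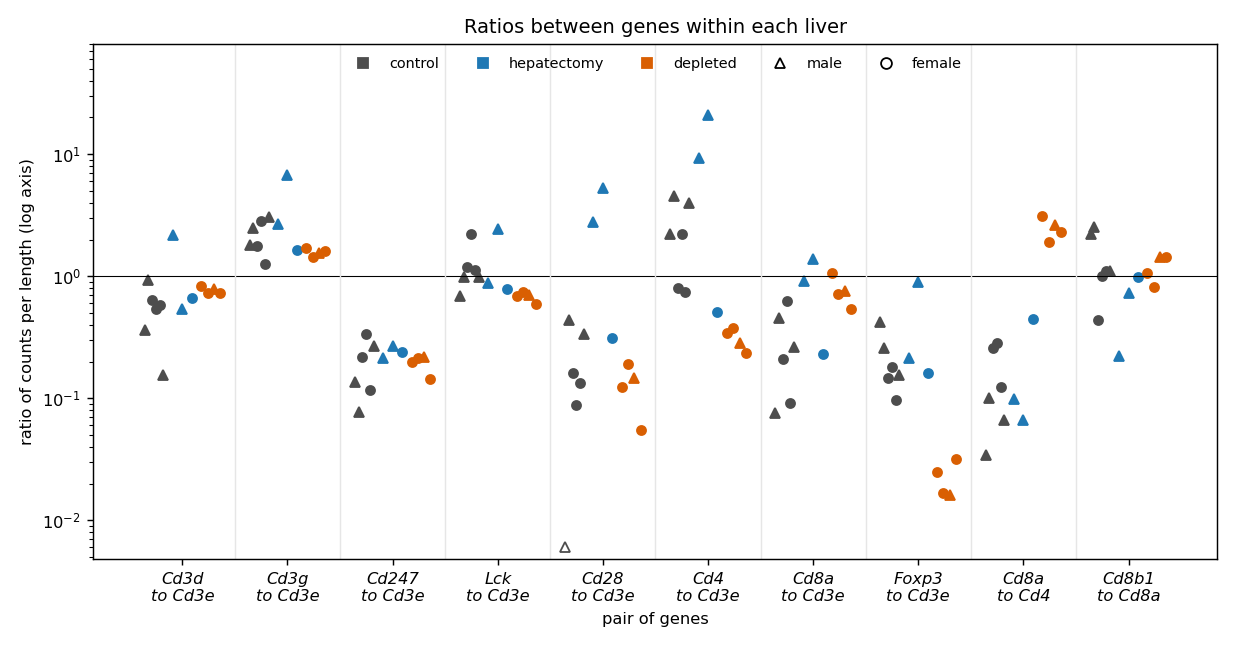
Ratio of counts per gene length between pairs of the genes in each liver, on a log axis, with groups by colour and sex by symbol; the open symbol at the bottom marks a ratio of 0. Cd8a to Cd4 lies between 1.9 and 3.1 in depleted livers and below 1 elsewhere, and Foxp3 to Cd3e is lowest in the depleted livers.

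Ratios to Ptprc differed from gene to gene. Cd8a to Ptprc per length was 0.639 to 0.911 in depleted livers, 0.0333 to 0.239 in controls and 0.124 to 0.262 after hepatectomy. Cd3e to Ptprc was 0.631 to 1.68 in depleted livers and 0.17 to 0.911 in controls, which overlapped, and 0.156 to 0.541 after hepatectomy, below every depleted liver. Control replicate 6 held that upper value, on 7 counts of Cd3e and 98 of Ptprc. Cd4 to Ptprc was 0.215 to 0.398 in depleted and 0.377 to 3.61 in control livers and 0.279 to 3.97 after hepatectomy. The values of 3.61 and 3.97 belong to control replicate 6 and hepatectomy replicate 2, on 98 and 134 counts of Ptprc. The other controls reached at most 0.97, and the other hepatectomised livers read 1.45 and 0.279. Depleted and control livers had an overlap at the edge, with the lower median in the depleted livers (0.322 against 0.632).

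Sex was not used to choose the genes and was tested within the 6 controls. Of the 10 genes, 6 passed the filter of that fit and 0 passed the threshold with edgeR, where 0.738% of all genes tested did. DESeq2 and limma-voom also called 0, and with edgeR 2 genes had an unadjusted p under 0.05. Lck read 0.455, 0.346 and 0.42 CPM in the males and 1.25, 0.809 and 1.61 CPM in the females. The sexes did not overlap, at a male minus female log2 difference of -1.58 ± 0.43 (edgeR adjusted p = 0.201). Cd4 went the other way, with 2.01, 2.22 and 2.34 CPM in males and 1.18, 1.12 and 1.47 CPM in females (0.80 ± 0.32, edgeR adjusted p = 0.35). Cd247 was the third gene whose sexes did not overlap, lower in males, at -1.19 ± 0.63 (edgeR adjusted p = 0.442). Ranges were apart in 20.8% of all genes tested in that fit, and an exact two-sided permutation test of 3 against 3 cannot go below 0.1.

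The other genes of the pathway come from 4 lists: 28 genes of T cell receptor signalling, 19 accessory receptors, 12 transcription factors of the T lineage and 10 genes of regulatory T cells. Of these 69 genes, 66 were tested. In depleted against control livers 51 rose, 3 fell and 12 did not pass (edgeR, adjusted p under 0.05), with a median log2 fold change of 3.19 against -0.03 over all genes. The shares of all genes tested that rose and fell were 18.9% and 15.0%. By list, 19 of 27 tested signalling genes, 18 of 19 accessory receptors, 8 of 12 transcription factors and 6 of 8 regulatory T cell genes rose.

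Of the 66 genes, 15 passed the low-count filter only through the depleted livers, and all 15 were called higher, so their calls follow in part from the filter. Among the other 51, 36 rose and 3 fell, with a median of 2.76. The largest rises were those of Ctla4, Cd5 and Eomes, which are among the 15. Ctla4, the inhibitory receptor that competes with CD28 for its ligands, read 0.386, 0.515, 1.85 and 1.98 CPM in depleted livers and at most 0.0702 CPM in controls (log2 fold change 5.68). Its value was 6.68 without control replicate 5 and 5.03 without depleted replicate 3. Cd5, a receptor that dampens T cell receptor signalling, read 1.26, 1.99, 3.11 and 4.12 CPM against at most 0.165 CPM (5.09). Eomes, a transcription factor of cytotoxic and memory cells, read 0.921, 1.55, 1.31 and 2.18 CPM against at most 0.0708 CPM (5.07). Control libraries of all these genes lay at or close to the floor, so the size of each fold is imprecise.

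The 3 that fell were S1pr1, the receptor for sphingosine 1-phosphate that is also abundant in endothelium (-1.09), Plcg1, a phospholipase used by many cell types (-0.59), and Zbtb7b, the factor ThPOK of the CD4 lineage (-0.50). All were well expressed in controls, S1pr1 at 73.1, Plcg1 at 69.5 and Zbtb7b at 73.3 CPM on average. In female livers alone Plcg1 and Zbtb7b did not pass, at -0.39 and -0.53. Zap70, the kinase that docks on the phosphorylated CD3 and zeta tails, did not pass (0.31). It already read 4.43 to 7.85 CPM in controls, above any of the 10 genes there, and 3.49, 4.55, 9.94 and 13.9 CPM in depleted livers.

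After hepatectomy 0 of the 66 rose and 3 fell with edgeR, against 6.06% and 2.36% of all genes tested. At an unadjusted p under 0.05, 2 were higher and 11 lower. DESeq2 called 1 higher and 5 lower, and limma-voom 0 and 2. Scaling by library size alone gave 0 higher and 8 lower, and it moved the median of all genes by -0.24. The median log2 fold change was -0.33, against -0.02 over all genes. Among those that fell, Plcg1 read 39.9, 41.5 and 35.8 CPM against 51.8 to 87 CPM in controls (-0.86). Malt1, a protease of antigen receptor signalling, read 7.38, 4.72 and 6.14 CPM against 9.78 to 11.1 CPM (-0.80), and was not called without hepatectomy replicate 2 (-0.65) or with the replicate number as a block (-0.78, edgeR adjusted p = 0.0618). Without hepatectomy replicate 2 only 1 of the 66 genes was called. In depleted against hepatectomised livers 49 rose and 0 fell with edgeR, against 13.3% and 10.1% of all genes tested, with 55 and 0 at an unadjusted p under 0.05, 52 and 0 with DESeq2, and 51 and 0 with limma-voom.

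**Figure D4:**
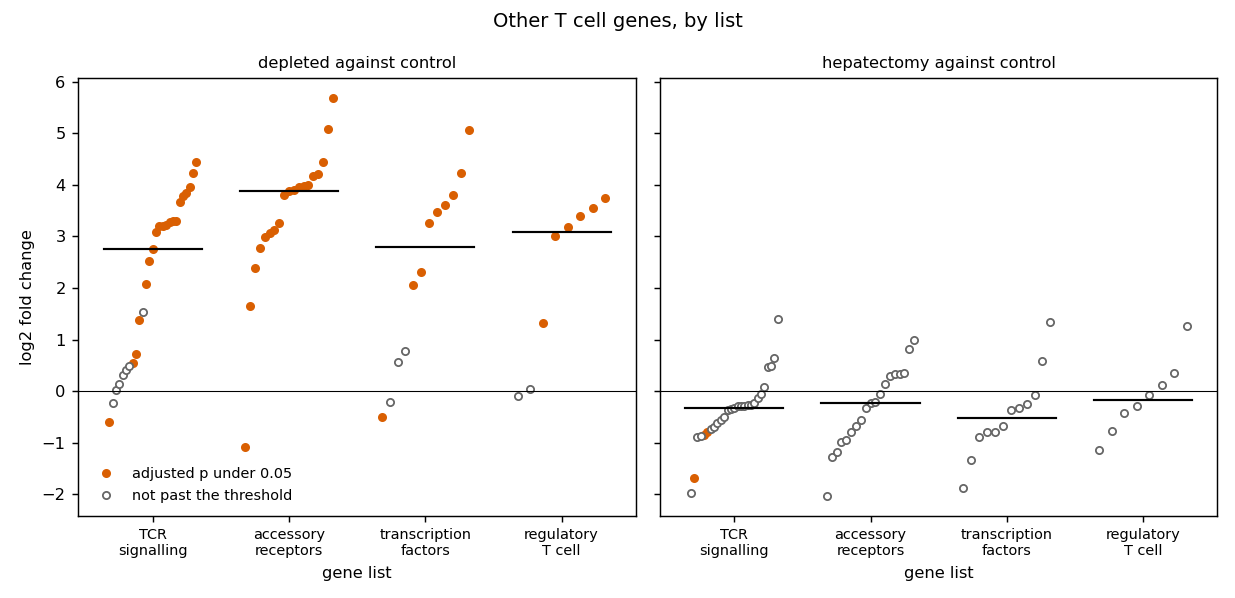
Log2 fold change of the 66 tested pathway genes by list, each point a gene, filled where the adjusted p was under 0.05, with list medians as bars. In depleted against control livers the list medians lie between 2.76 and 3.89, and in hepatectomised against control livers between -0.51 and -0.18.

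The ligands of CD28 (Cd80 and Cd86) and of ICOS (Icosl) on antigen-presenting cells also rose in depleted livers (edgeR, adjusted p under 0.05). That was 3 of 3, where 18.9% of all genes tested rose. The log2 fold changes were 3.07 for Cd80, 2.44 for Cd86 and 2.37 for Icosl, the ligand of ICOS. After hepatectomy 0 of 3 passed with edgeR, DESeq2 or limma-voom, and 1 had an unadjusted p under 0.05. Cd86 then read 5.58, 0.814 and 3.29 CPM, against 0.99 to 5.05 CPM in controls, so the groups overlapped. The 8 constant region genes of the T cell receptor itself were not analysed here.

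Markers of other blood-borne cells also rose in the depleted livers, and after hepatectomy those of neutrophils rose and some of B cells fell. In depleted against control livers NK cell markers rose for 6 of 6 tested, B cell markers for 7 of 7, monocyte and macrophage markers for 7 of 7, and neutrophil markers for 6 of 6. The share of all genes tested that rose was 18.9%. At least Klra8 (NK), Elane and Ly6g (neutrophil) passed the low-count filter only through the depleted livers, so part of these counts follows from the filter. Dendritic cell markers rose for 4 and fell for 1 of 7. Kupffer cell markers rose for 3 of 7 (Timd4, Marco and Adgre1). Clec4f read 0.236, 2.17 and 3.44 CPM in depleted replicates 1 to 3 but 69.5 CPM in replicate 4, against 20.3 to 165 CPM in controls. Its means were 18.8 CPM in depleted and 111 CPM in control livers, and those of Vsig4 were 20.1 and 35.2 CPM. Neither Clec4f nor Vsig4 passed the threshold. In addition, plasma cell markers rose for 2 of 5 (Jchain and Mzb1). Summed NK markers were 31 to 74.7 CPM in depleted livers, 0.84 to 5.43 CPM in controls and 0.702 to 3.59 CPM after hepatectomy. Gzma (30.7 CPM on average in depleted livers) and Klrk1 (12 CPM), which cytotoxic T cells also express, made up most of that sum. Ncr1, a receptor largely restricted to NK cells, read 1.18, 0.896, 0.559 and 0.601 CPM in the depleted livers, a log2 fold change of 1.79. Klrb1c, the NK1.1 antigen, read 2.27, 2.17, 0.978 and 1.51 CPM, a log2 fold change of 1.72. Both were highest in depleted replicates 1 and 2, whereas the NK sum and most of the 10 genes were highest in replicates 3 and 4. Summed B cell markers were 25.4 to 39.9, 4.14 to 7.84 and 0.982 to 4.76 CPM in the same order, and after hepatectomy 3 of 7 fell (Ms4a1, Pax5 and Fcer2a, log2 fold changes of -1.51, -2.49 and -2.33). Dendritic cell markers summed to 24.4 to 70, 5.76 to 11 and 4.49 to 7.81 CPM, and no gene of these 3 lists was at 0 throughout a group. Monocyte and macrophage markers summed to 1010 to 1660 CPM in depleted, 35.8 to 310 CPM in control and 56.5 to 241 CPM in hepatectomised livers. Neutrophil markers summed to 111 to 273, 0.39 to 1.93 and 15.2 to 30.3 CPM, with Ly6g at 0 in every control, and 5 of 6 tested also rose after hepatectomy, where 0 of the 10 genes passed with edgeR. Plasma cell markers summed to 400 to 500, 374 to 471 and 547 to 828 CPM, with Tnfrsf17 at 0 in every control. Most of that sum was Xbp1 (means of 221, 233 and 358 CPM) and Sdc1 (212, 188 and 310 CPM). Jchain averaged 21.6, 1.38 and 0.739 CPM and Mzb1 2.47, 0.16 and 0.15 CPM in the same order. Kupffer cell markers summed to 633 to 1390, 417 to 756 and 277 to 843 CPM. The part of these lists in the levels of the 10 genes was not tested. NK cells carry Cd247 and Lck, and some dendritic cells carry Cd8a or Cd4. Ptprc read 100, 75.0, 130 and 111 CPM in depleted livers and 2.94 to 16.4 CPM in controls, a log2 fold change of 3.21.

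**Figure D5:**
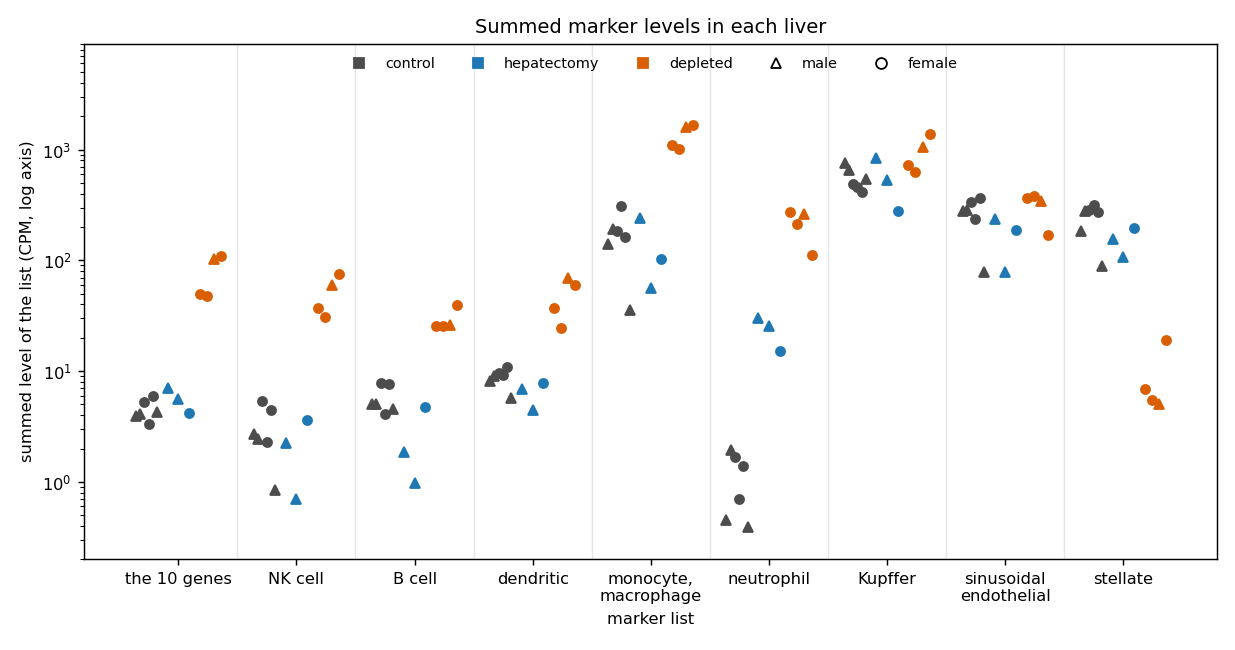
Summed CPM of the 10 genes and of 8 marker lists in each liver, on a log axis, with groups by colour and sex by symbol. NK, B, dendritic, monocyte and neutrophil lists are higher in every depleted liver than in any control, as the 10 genes are, and stellate markers are lower (5.01 to 19.3 against 89.8 to 315 CPM).

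Genes whose pattern over the 13 libraries was most like the mean of the 10 were sought among 11374 genes. The measure was Pearson's r between log2 CPM and the mean standardised log2 CPM of the 10 genes, and it is a description, since all libraries share the group difference. The closest were Psmb8, a subunit of the immunoproteasome (r = 0.993), Apobec3, a cytidine deaminase that restricts retroviruses (0.992), Fam49b (0.988) and Gmfg (0.987). Cd52, a leukocyte surface glycoprotein (0.985), Thy1, a surface protein of mouse T cells (0.985), Naaa (0.984) and Pycard, the inflammasome adaptor ASC (0.983), followed. After group means were removed, r was 0.873 for Psmb8 and between 0.724 and 0.863 for the other 7. In all, 468 genes had an r over 0.9. Psmb8 averaged 213 CPM in depleted, 35.3 CPM in control and 33.5 CPM in hepatectomised livers, and Thy1 averaged 12.9, 0.79 and 0.997 CPM.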

How the data were processed

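Whole-liver RNA of 13 mouse libraries was measured by RNA-seq. Per the labels' protocols, RNA was extracted with TRIzol and 500 ng entered TruSeq stranded mRNA libraries. The authors deposited raw read counts for each gene, beside its length. The submitters' processing notes name STAR 2.7.1a, SAMtools 1.15.1, featureCounts 1.6.4 and build mm10, and the settings for strand and multi-mapped reads are not given in the sources used here. Of 22048 gene identifiers, 21741 matched GENCODE M21, which gave symbols and GRCm38 coordinates, and 99.94% of these overlapped the same gene in GRCm38. The table held 0 value columns of other samples.

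Counts were fitted with edgeR 4.0.16 in R 4.3.3 (filterByExpr, TMM scaling, robust glmQLFit, glmQLFTest) over all 13 libraries with group and sex as terms. The filter kept 13831 genes, and 13005 in the fit of sex within controls. P-values were two-sided and Benjamini-Hochberg adjusted over all genes tested, with a threshold of 0.05. CPM are TMM-scaled, and the prior count for log2 CPM was 2. DESeq2 1.42.0, limma-voom (limma 3.58.1), other scalings, filters and terms, and leaving out each library were alternatives, and the script was tested on simulated counts. Ratios between genes are counts divided by gene length. Without molecular identifiers, the floors and intervals describe counting error alone.

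The members, gene lists, tests and alternatives were chosen with earlier results of these data known. All 10 members are named. Of the pathway lists, the 3 largest rises and 3 largest falls with an adjusted p under 0.05 and CPM ranges apart are named for each comparison with control. Cd80, Cd86, Icosl and the 8 genes of most similar pattern (mean log2 CPM of at least 0) are named too. One gene that this rule names is not reported here. Zap70, Ptprc and the single marker genes of other cell types were added after their values were seen. Same-numbered control and hepatectomised libraries deviated together (r of 0.107 to 0.523 over all genes tested). These pairs share sex, and with sex removed r was -0.191 to 0.084. Libraries of a group differed by more than sampling noise and were counted separately.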

Additional observations from a re-analysis of the deposited data

Results flagged for a closer look

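Ctla4 in control replicate 5 stood apart from its group. It read 0.0702 CPM, from 3 counts, and the nearest of the other 5 controls read 0.0247 CPM. The gap was 0.648 of the group's range, above Dixon's critical value of 0.625 for 6 samples. It was the only such value among 56 groups tested, where chance gives about 1 in 20, and it lies at the floor of 3 counts.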

How the results depend on the processing

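Calls among the 10 genes in depleted against control livers numbered 9 to 10 when each library was left out, 8 in each case against hepatectomised livers, and 0 in each case in hepatectomised against control livers and by sex. In hepatectomised against control livers 1 of the 10, Cd28, was called with DESeq2, with limma-voom and without the sex term. Calls among the 66 pathway genes ran from 43 to 55 (depleted against control), 1 to 4 (hepatectomised against control) and 37 to 49 (depleted against hepatectomised) as each library was left out. For the second of these, DESeq2 called 6 and scaling by library size alone called 8 (all lower), against 3. That scaling moved the median of all genes by -0.24 after hepatectomy and by 0.27 in depleted against hepatectomised livers, and the cause of the other changes was not tested. Cd28 in males against females changed sign without control replicate 1 (0.19, edgeR adjusted p = 0.94) and reached -0.88 without replicate 2. With the replicate number as a block, 9, 0 and 8 of the 10 genes and 52, 2 and 53 of the pathway genes were called in the 3 comparisons in the order given above for pathway genes. The calls lost with it were those of Foxp3 (depleted against control) and Malt1 (hepatectomised against control) among the genes named. With control replicate 6, depleted replicate 4 and hepatectomy replicate 2 left out, an alternative chosen after seeing the data, 9, 0 and 8 members and 54, 3 and 50 pathway genes were called. Control counts of Cd8a, Cd8b1 and Foxp3 were at most 14 per library, which limits the precision of their folds.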
